A study of Mus musculus with 12 samples.

Results

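The IL-6 family cytokines and the suppressors of cytokine signalling are represented here by 10 genes taken by symbol from the deposited count table: the cytokines Il6, Lif, Osm and Clcf1, the receptor chains Il6st and Il6ra, and the feedback inhibitors Socs1, Socs2, Socs3 and Cish. They are 10 of the 27179 genes in the table, and all 10 were among the 16175 genes that passed the filter on low counts. The tissue was epididymal white adipose tissue (eWAT), the visceral fat pad attached to the epididymis, from 12 male C57BL/6J mice on chow. Saline was injected intraperitoneally into 6 of them (vehicle), and sodium epinephrine at 0.5 mg/kg was given by the same route to the other 6 (epinephrine). Fat was taken 1 h after injection in both groups, and each library came from a separate mouse. The mice carried no transgene or mutation named in the labels. The labelled ages were 12 to 17 weeks in the vehicle group and 18 to 23 weeks in the epinephrine group, in steps of exactly 1 week along the replicate numbers. Whether these labels are true ages could not be checked; if they are, age cannot be told apart from treatment, nor from replicate number within a group.

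IL-6, leukaemia inhibitory factor (Lif), oncostatin M (Osm) and cardiotrophin-like cytokine (Clcf1) all signal through the shared receptor chain gp130, which is encoded by Il6st, each in combination with other receptor chains. Ligand binding activates Janus kinases (JAK) bound to the receptor, which phosphorylate STAT3 and related transcription factors. STAT factors then raise transcription of SOCS genes, whose proteins inhibit the receptor complex or the kinases and so close a negative feedback loop. In fat, IL-6 is made by several cell types, immune cells among them, and adrenergic stimulation is a known inducer of it.

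The libraries held 24821601 to 34405433 counts. The 6 adipocyte markers examined, Adipoq and Plin1 among them, summed to 6602 to 22013 counts per 1000000 normalized library counts (CPM) in the vehicle group and 9690 to 22745 CPM in the epinephrine group, so every library carried the labelled tissue's defining transcripts. Tissue from the epididymis was also present to an uneven degree: 6 epididymis genes took 0.000788% to 3.83% of counts in vehicle libraries and 0.00256% to 2.78% in epinephrine libraries. In 3 libraries (vehicle 2, epinephrine 1 and epinephrine 2) the epididymal gene Gpx5 alone exceeded 0.5% of counts. All values below are from bulk tissue, in which fewer cells of a type and less RNA per cell cannot be told apart.

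None of the 10 genes differed between epinephrine and vehicle at an adjusted p under 0.05 in edgeR's quasi-likelihood test, against 6.23% of all tested genes (2.65% higher and 3.58% lower). At an unadjusted p under 0.05, 1 of the 10 genes, Osm, stood out, against 17.2% of all tested genes. That count was 4 with scaling by library size alone (24.9% of all tested genes), 3 without the 3 libraries rich in Gpx5 (25.5%) and 3 in replicate numbers 4 to 6 alone (27.0%). The median log2 fold change was -0.21 over the 10 genes and -0.000594 over all tested genes. Osm was the gene nearest to a call, with a mean level 3.57-fold higher after epinephrine. With the replicate number as a block in the same test, 1 of the 10 genes, Osm, passed (2.38% of all tested genes passed as higher and 2.26% as lower). The labels name no pairing of these numbers. DESeq2, limma-voom and limma on the deposited transformed values also each called Osm and no other gene of the 10, with 4.03%, 6.34% and 2.39% of the genes they tested called higher. So did edgeR with an epididymis marker score as a covariate (4.04% of genes higher) and without the 3 libraries rich in Gpx5 (4.87% higher). For every one of the 10 genes the ranges of the groups overlapped, whereas they did not overlap for 4.79% of all tested genes.

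**Figure D1:**
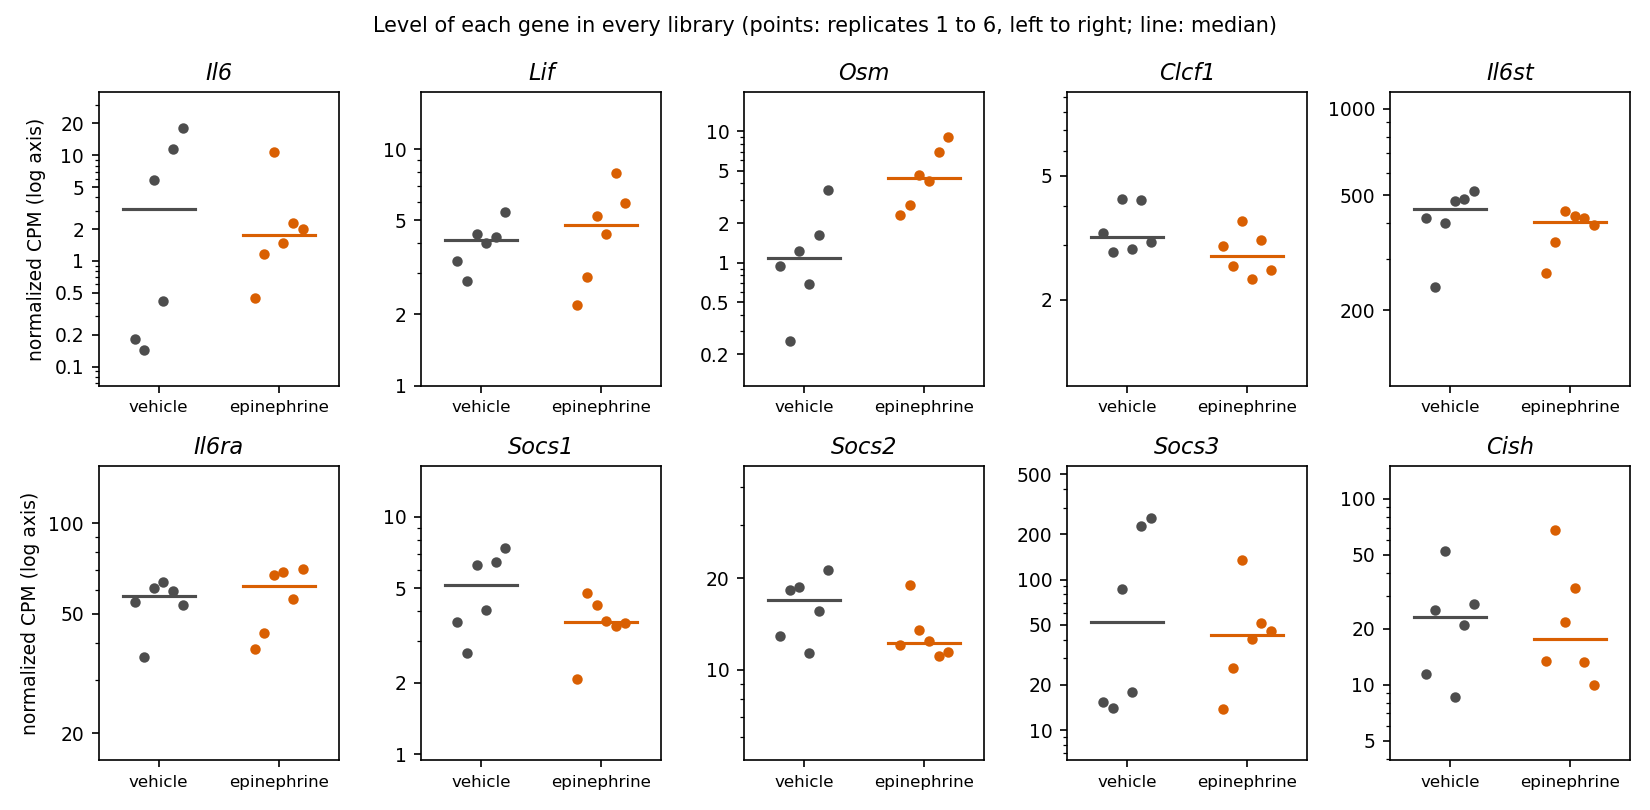
Normalized CPM (log axis, scaled separately in each panel) of the 10 genes in each of the 6 vehicle and 6 epinephrine libraries; points are libraries, placed left to right by replicate number, and lines are group medians. Osm has the clearest offset, with 4 of 6 epinephrine libraries above every vehicle library, and Il6 and Socs3 have the widest spread within the vehicle group.

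**Figure D2:**
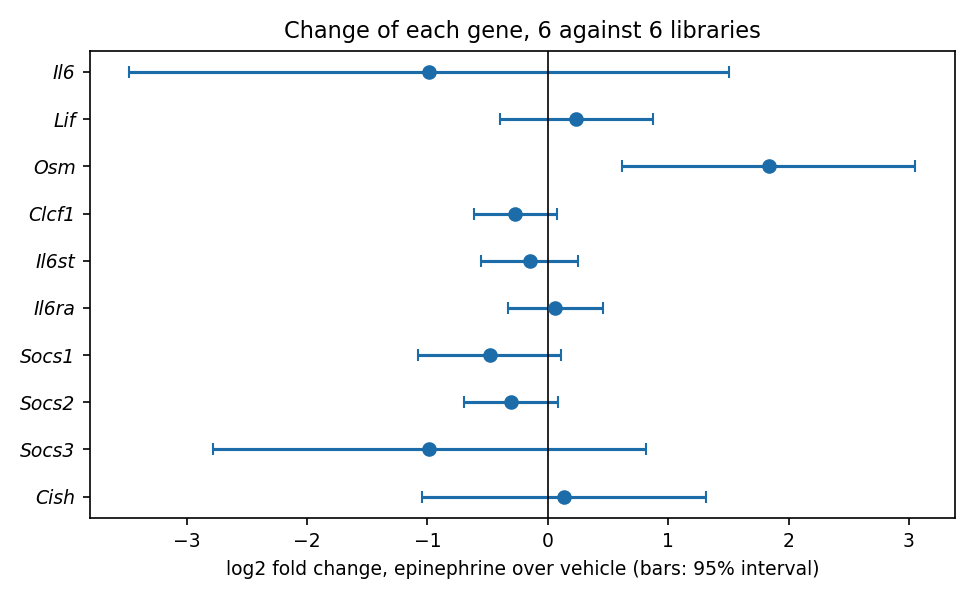
Log2 fold change of epinephrine over vehicle for the 10 genes, with 95% intervals from edgeR (6 libraries in each group). Only the interval of Osm, 0.61 to 3.05, lies wholly on one side of 0, and that interval is not adjusted for the number of genes tested.

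Per kilobase of transcript, the levels spanned more than an order of magnitude. In the vehicle group the mean level, as CPM per kilobase of the deposited gene length (RPKM), was 77.8 ± 18.4 (SD, n = 6) for Il6st, the signalling chain, and 37.6 ± 40.7 for Socs3. Il6ra followed at 16.4 ± 3.01 RPKM and Cish at 11.2 ± 7.19 RPKM. The ranges of Il6ra and Cish overlapped, as did those of Socs3 and Il6ra. Socs2 at 6.08 ± 1.40, Il6 at 5.51 ± 6.80, Clcf1 at 4.18 ± 0.771 and Socs1 at 4.17 ± 1.55 RPKM formed a group whose ranges overlapped. Lif at 0.998 ± 0.225 RPKM and Osm at 0.728 ± 0.617 RPKM were the lowest, and they too overlapped. In the epinephrine group Il6st again led at 70.0 ± 11.8 RPKM, and Lif was the lowest at 1.18 ± 0.517 RPKM. Osm stood at 2.61 ± 1.36 RPKM there, near Il6 at 2.79 ± 3.53 RPKM and Socs1 at 2.98 ± 0.747 RPKM.

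Il6, the cytokine that gives the family its name, is a protein-coding gene at chr5:30013114-30019975 on the forward strand of mouse build GRCm38.p6. Its promoter is shown because Il6 varied more between libraries than the other 9 genes, beside that of Lif, the other cytokine of the set with an entry in the RefSeq promoter table used (7 of the 10 genes had one). Each line gives the 250 bases upstream of the annotated start, 5′ to 3′ on the gene's strand, from RefSeq for GRCm38.p6. Capitals mark matches on either strand to 5 motifs that were searched for: the half-site of the cyclic AMP response element (TGACGT), the AP-1 site (TGANTCA), the C/EBP site (TTGNNCAA), the NF-kB site (GGGNN followed directly by TTTCC) and the STAT site (TTCNNNGAA).
Il6: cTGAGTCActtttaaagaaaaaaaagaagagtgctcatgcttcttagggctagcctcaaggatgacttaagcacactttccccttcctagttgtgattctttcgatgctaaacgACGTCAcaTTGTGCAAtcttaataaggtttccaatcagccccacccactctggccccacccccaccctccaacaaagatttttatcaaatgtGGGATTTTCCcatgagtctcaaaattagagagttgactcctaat
Lif: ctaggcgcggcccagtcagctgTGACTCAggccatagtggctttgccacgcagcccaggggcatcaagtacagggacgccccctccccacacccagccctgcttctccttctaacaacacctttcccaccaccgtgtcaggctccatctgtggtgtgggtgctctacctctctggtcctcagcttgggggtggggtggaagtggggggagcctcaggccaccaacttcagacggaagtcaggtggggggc
The Il6 window, chr5:30012864-30013113, held an AP-1 match TGAGTCA at 249 to 243 bases upstream of the start and a cyclic AMP half-site, ACGTCA on the strand shown, at 136 to 131 bases. A C/EBP match TTGTGCAA followed at 128 to 121 bases and an NF-kB match GGGATTTTCC at 44 to 35 bases. None of these matches overlapped another. The Lif window, chr11:4257318-4257567, held an AP-1 match TGACTCA at 228 to 222 bases. Of 32851 promoters of the same length, 6.75% held the AP-1 letters, 6.47% the cyclic AMP half-site, 5.65% the C/EBP letters, 1.41% the NF-kB letters and 7.02% the STAT letters. Cish had a cyclic AMP half-site and a C/EBP match in its window, and the windows of Il6ra, Il6st and Socs1 held none of the 5. The start listed for Socs3 lies inside the span annotated for that gene, so its window is not read as upstream sequence here. The motifs were picked with the Il6 promoter in mind, so their presence there is a description and no finding.

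Il6 was low and uneven in saline-injected mice. Vehicle libraries 1, 2 and 4 stood at 0.182, 0.144 and 0.419 CPM, and vehicle libraries 3, 5 and 6 at 5.78, 11.4 and 18.0 CPM, which correspond to raw counts from 4 to 612. Thus 3 saline-injected mice were low and 3 were high with nothing between 0.419 and 5.78 CPM. Epinephrine libraries 1 to 6 stood at 0.446, 1.17, 10.8, 1.49, 2.31 and 2.01 CPM. Of these, 5 fell inside that gap, and epinephrine 3 stood among the high vehicle libraries. The highest library exceeded the lowest 125-fold in the vehicle group and 24.1-fold in the epinephrine group.

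The group means of Il6, 5.99 ± 7.39 CPM (SD, n = 6) for vehicle and 3.03 ± 3.84 CPM for epinephrine, could not be separated. The edgeR log2 fold change was -0.98 (SE 1.14, 95% interval -3.48 to 1.51, adjusted p = 0.792). That estimate was -0.24 without vehicle 6 and -2.01 without epinephrine 3, the ends of its range when single libraries were left out. Averaged on the log2 CPM scale (with a prior count of 1 to each library) the order was the other way round, 0.74 for vehicle and 0.92 for epinephrine, a difference of 0.19 with an exact two-sided permutation p of 0.892. The sign for Il6 therefore depended on the scale, and with the replicate number as a block the edgeR value was 0.10. A response in either direction of up to several-fold lies inside the interval.

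The spread of Il6 was compared between groups as the mean absolute deviation of log2 CPM from the group median. It was 2.67 in the vehicle group and 0.98 in the epinephrine group, a difference of -1.70 (two-sided permutation p = 0.013 over all 924 regroupings of the deviations, which allow no p below 0.00216). The deviations come from each group's own median, so this p is approximate. The vehicle median fell in the gap between the low and the high vehicle libraries. Leaving out any single vehicle library raised the permutation p to between 0.203 and 0.229, and leaving out epinephrine 3 lowered it to 0.00216. With any vehicle library left out, the vehicle median no longer falls in the gap but on a low or a high library. The mean absolute deviation of the vehicle group was then still 2.14 to 2.47. On the deposited transformed values the difference was -0.51 with a permutation p of 0.0519. The SD of log2 CPM of Il6, 3.01 in the vehicle group and 1.47 in the epinephrine group, was larger than that of 98.7% and 94.3% of tested genes, for which the median SDs were 0.288 and 0.300.

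Socs3, which encodes the main SOCS inhibitor of gp130 and is itself a STAT3 target, followed Il6 from library to library. Vehicle libraries 1, 2 and 4 stood at 15.3, 14.1 and 18.0 CPM of Socs3, and vehicle libraries 3, 5 and 6 at 87.0, 225 and 257 CPM. Epinephrine libraries 1 to 6 stood at 13.9, 25.7, 135, 40.4, 51.3 and 45.4 CPM. The same 4 libraries were thus the highest for Socs3 as for Il6. The group means were 103 ± 111 CPM (SD, n = 6) and 52.0 ± 43.0 CPM, with an edgeR log2 fold change of -0.98 (SE 0.82, 95% interval -2.78 to 0.81, adjusted p = 0.656). It was -0.31 in the fit with the replicate number as a block, -0.59 without vehicle 5, -0.47 without vehicle 6 and -1.54 without epinephrine 3.

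Across the 12 libraries the log2 CPM of Socs3 and Il6 correlated with Pearson's r = 0.974 and Spearman's rho = 0.958. The permutation p was 1e-05 for r, the smallest that 100000 permutations can give, and 2e-05 for rho, and 3e-05 and 6e-05 after Benjamini-Hochberg adjustment over the 3 relations examined. Without vehicle 2 and vehicle 6, the libraries farthest from the median of Il6, r was 0.971. Within the 6 epinephrine libraries r was 0.990 (exact permutation p = 0.00139, adjusted 0.00417). No r is given within the vehicle group, whose Il6 values form separate clusters. With each group split into replicate numbers 1 to 3 and 4 to 6 and the means of these subsets removed, r over the 12 libraries was 0.986 (exact permutation p = 0.000772 within subsets, adjusted 0.00116). Both vehicle subsets still hold low and high libraries of Il6, so this r does not set the gap between them aside.

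The relations of the other cytokines to Il6 were looser. For Lif, r with Il6 was 0.605 (permutation p = 0.0368, adjusted 0.0552) and rho 0.678 (permutation p = 0.0185, adjusted 0.0278). Without vehicle 2 and vehicle 6 the r for Lif was 0.501, within the epinephrine group it was 0.655 (exact permutation p = 0.143, adjusted 0.215), and within the subsets of replicate numbers it was 0.730 (exact permutation p = 0.000772, the smallest that 1296 reorderings within subsets give, adjusted 0.00116). For Osm, r was 0.548 (permutation p = 0.0647, adjusted 0.0647) and rho 0.545 (permutation p = 0.0711, adjusted 0.0711). Without the same 2 libraries the r for Osm was 0.356. Within the epinephrine group it was 0.508 (exact permutation p = 0.294, adjusted 0.294), and within the subsets of numbers 0.786 (exact permutation p = 0.0409, adjusted 0.0409). Within these subsets the relations of Lif and Osm to Il6 therefore passed 0.05 after adjustment, which Pearson's r over the 12 libraries as they stand did not. The subsets keep the gap between low and high vehicle libraries, and the exact test within them was added after the data were seen. At a given level of Il6, the epinephrine libraries lay above the vehicle libraries for Osm, as the plot of both genes shows. Il6, Socs3, Lif and Osm were each lowest of the vehicle group in vehicle 2. Within the epinephrine group each was lowest in epinephrine 1, followed by epinephrine 2. Gpx5 was high in these same libraries, and the part of epididymal tissue in the relations was not tested.

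**Figure D3:**
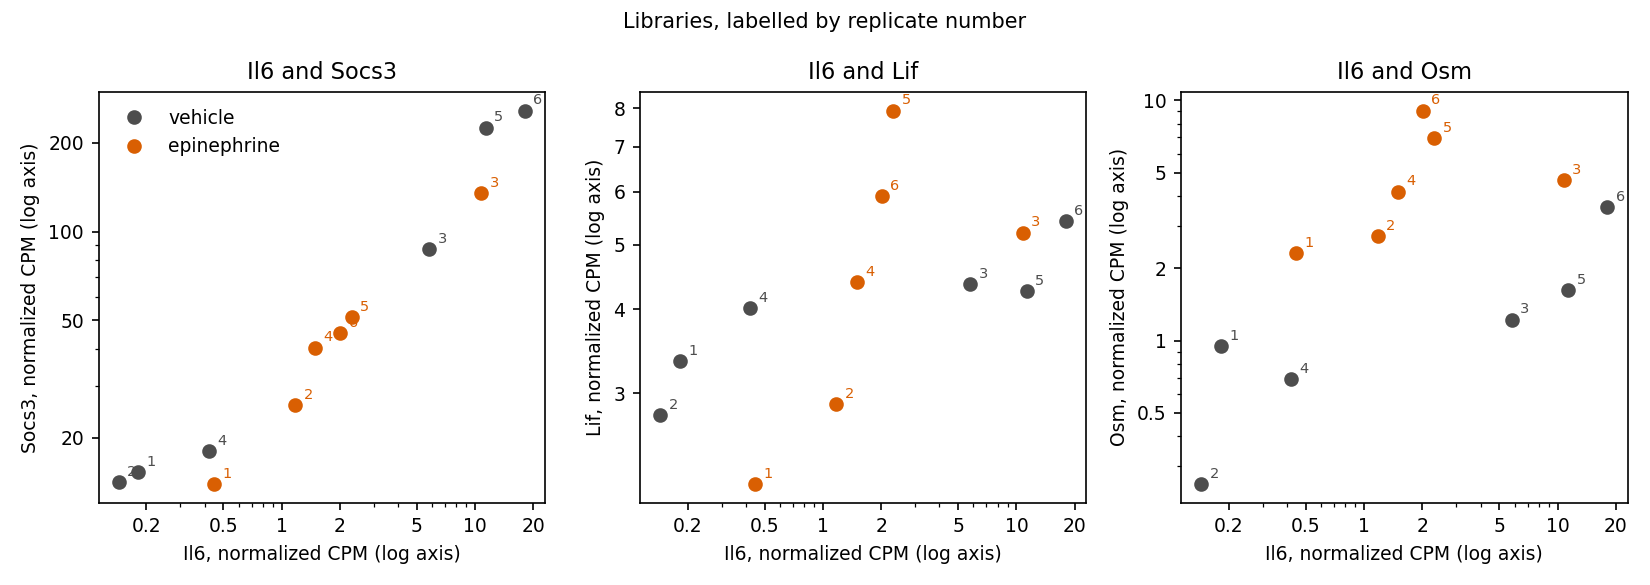
Socs3, Lif and Osm against Il6, all in normalized CPM on log axes, in 12 libraries labelled by replicate number. Socs3 follows Il6 in both groups (r = 0.974), whereas Osm forms separate bands for vehicle and epinephrine.

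The 5 genes whose log2 CPM was most like that of Il6 over the 12 libraries, of 13091 genes compared, were Zc3h12a (r = 0.989), Tnfaip3 (r = 0.985), Has1 (r = 0.979), Nfkbia (r = 0.975) and Socs3 (r = 0.974). Zc3h12a encodes regnase-1, a nuclease that degrades Il6 mRNA, Tnfaip3 encodes the NF-kB inhibitor A20, Nfkbia encodes the NF-kB inhibitor IkB-alpha, and Has1 encodes a hyaluronan synthase. These r values describe the ranking by which the genes were picked and were not tested. Zc3h12a ranged from 12.4 to 62.2 CPM in the vehicle group and from 15.9 to 46.4 CPM in the epinephrine group. Tnfaip3 ranged from 13.7 to 194 CPM and from 34.6 to 175 CPM. Has1 spanned the widest range of these apart from Il6 itself, from 1.34 to 69.7 CPM and from 3.79 to 54.4 CPM, and Nfkbia the narrowest in ratio, from 62.0 to 273 CPM and from 99.3 to 252 CPM. In each of the 5 genes the high libraries were vehicle 3, 5 and 6 and epinephrine 3. No gene among them differed between the groups in edgeR (adjusted p from 0.656 to 0.978).

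**Figure D4:**
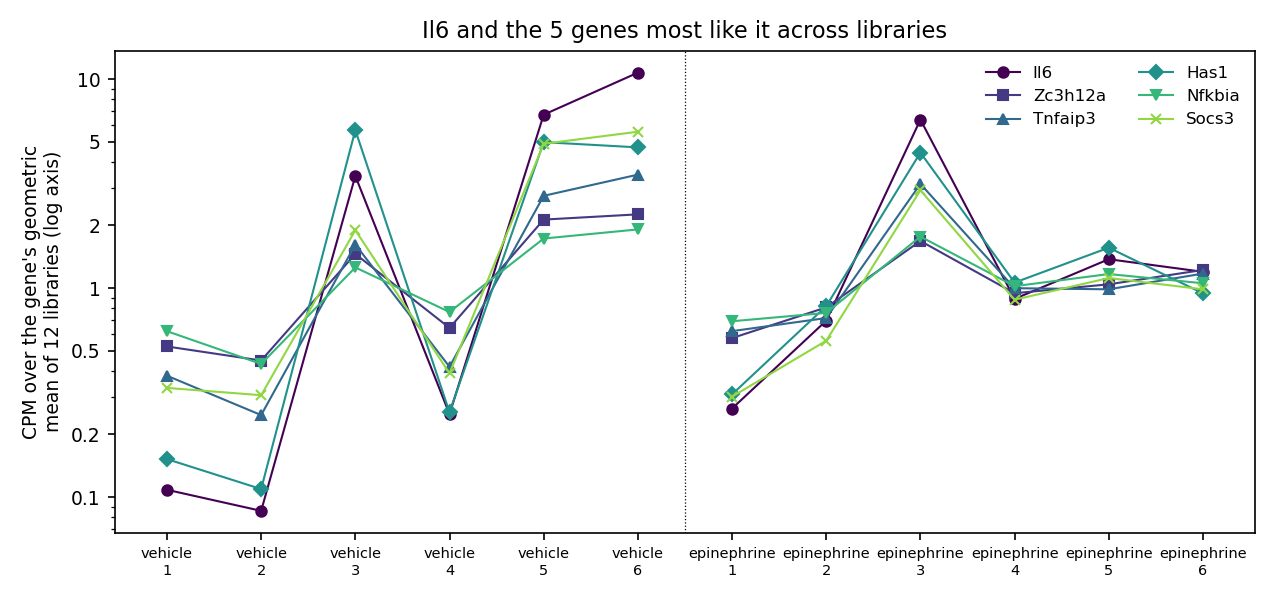
CPM of Il6 and of the 5 genes most like it, each divided by its geometric mean over the 12 libraries (log axis), by library. All 6 lines peak in vehicle 3, 5 and 6 and in epinephrine 3, and the lines are guides to the eye between separate mice.

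Inflammatory and leukocyte transcripts were examined in the same libraries. The 8 inflammatory cytokines and chemokines listed, among them Il1b, Tnf, Ccl2 and Cxcl1, summed to 17.6, 14.8 and 21.1 CPM in vehicle 1, 2 and 4 and to 224, 237 and 386 CPM in vehicle 3, 5 and 6. In the epinephrine group they summed to 33.1, 42.5, 272, 59.8, 78.6 and 67.7 CPM, highest in epinephrine 3. The 5 neutrophil markers, S100a8 and S100a9 among them, summed to 55.7, 72.6 and 63.9 CPM in vehicle 5, vehicle 6 and epinephrine 3 and to between 7.51 and 17.6 CPM in the other 9 libraries. Vehicle 3, a library high in Il6, was at 16.8 CPM of neutrophil markers. The part of neutrophil content in the level of Il6 and Socs3 was not tested.

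Osm, a cytokine made largely by myeloid and T cells, was the gene of the set with the largest log2 fold change. Vehicle libraries 1 to 6 stood at 0.947, 0.253, 1.22, 0.689, 1.63 and 3.60 CPM, and epinephrine libraries 1 to 6 at 2.30, 2.73, 4.66, 4.17, 6.97 and 9.05 CPM. All 6 epinephrine libraries lay above 5 of the 6 vehicle libraries, and the groups overlapped only through vehicle 6, which exceeded epinephrine 1 and 2. In each of the 6 replicate numbers the epinephrine library was the higher. The labels name no pairing of these numbers, so such counts, here and below, rest on a matching that was not established. The epinephrine library was the higher in 5 numbers for Lif, 4 for Il6 and Il6ra, and 3 for Socs3 and Cish. It was the higher in 2 for Il6st and Socs2, 1 for Socs1 and 0 for Clcf1. The share of all genes with such counts was not computed. The raw counts of Osm were low, 7 to 122 in vehicle and 62 to 225 in epinephrine libraries.

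The group means of Osm were 1.39 ± 1.18 CPM (SD, n = 6) and 4.98 ± 2.59 CPM. The edgeR log2 fold change was 1.83 (SE 0.56, 95% interval 0.61 to 3.05), with an unadjusted p of 0.00666 and an adjusted p of 0.0836, above the threshold of 0.05. In the blocked fit it was 2.05 (SE 0.30, adjusted p = 0.0142). Adjusted p-values were 0.00961 in DESeq2, 0.00304 in limma-voom and 0.0465 in limma on the transformed values. Without vehicle 6 the edgeR log2 fold change was 2.39 (adjusted p = 0.021). With a score of the epididymis markers as a covariate it was 2.12 (adjusted p = 0.000776), and without the 3 libraries rich in Gpx5 it was 1.94 (adjusted p = 0.0314). In replicate numbers 1 to 3 alone the log2 fold change was 2.01 (adjusted p = 0.484), and in numbers 4 to 6 alone it was 1.76 (adjusted p = 0.126). In all 25 alternatives the sign was the same, and in 7 of them Osm passed.

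**Figure D5:**
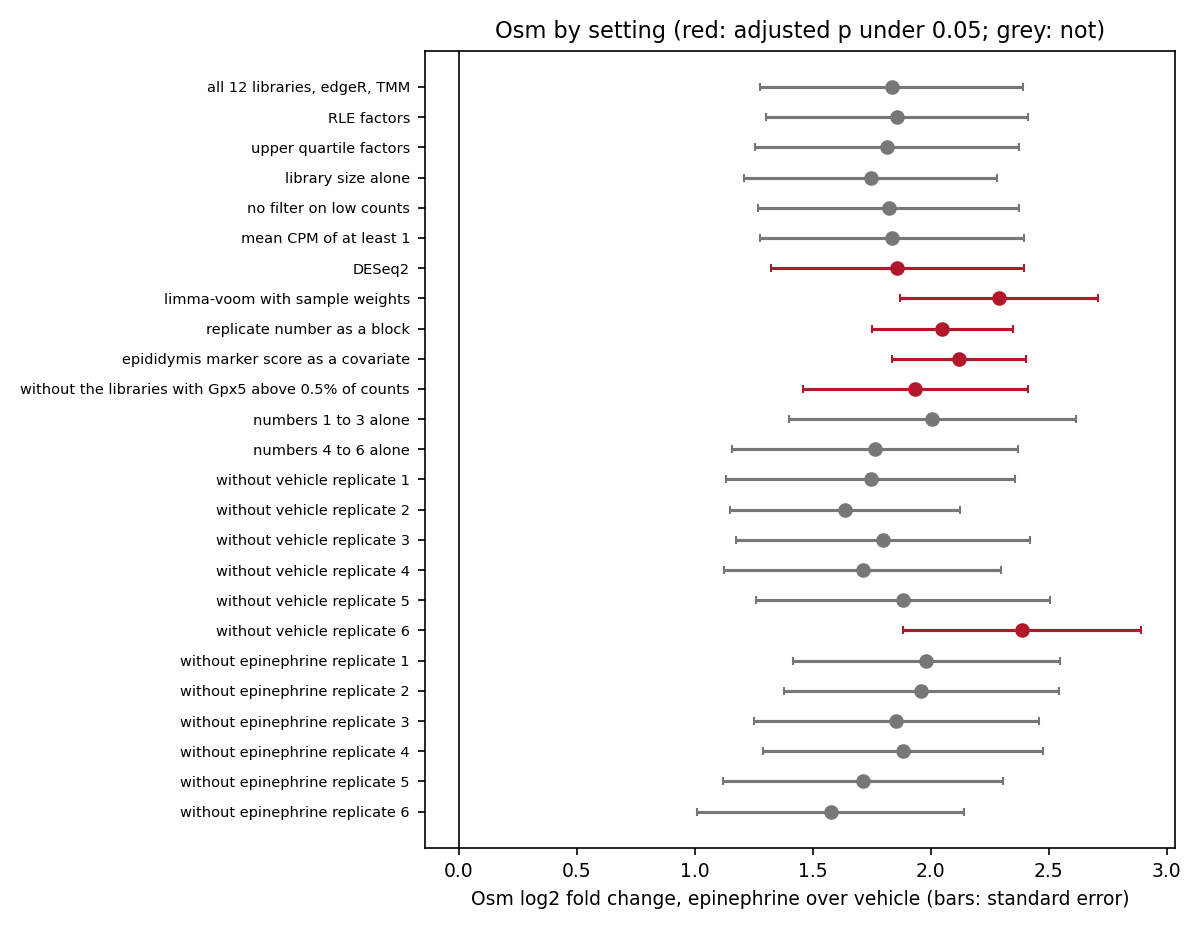
Log2 fold change of Osm, epinephrine over vehicle, with its standard error, in the edgeR test on all 12 libraries and in 24 of its 25 alternatives; limma on the transformed values (0.65) is left out because its scale differs. Red points have an adjusted p under 0.05, and every value drawn lies above 0.

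Macrophage and monocyte markers, given beside Osm because myeloid cells are a known source of it, summed to 627 to 1327 CPM in the vehicle group (median 1269) and 579 to 1710 CPM in the epinephrine group (median 1236). Of these 6 markers 0 were called in edgeR, and 1 had an unadjusted p under 0.05, against 6.23% and 17.2% of all tested genes. That marker was Cd14, an endotoxin co-receptor of monocytes, singled out here after its values were seen, at 43.3 ± 22.5 CPM in vehicle and 106 ± 31.7 CPM in epinephrine libraries (SD, n = 6; log2 fold change 1.29, SE 0.35, edgeR adjusted p = 0.0502). By DESeq2, limma-voom, limma on the transformed values and the blocked edgeR fit, 1 of the 6 passed as higher. Of all genes these fits tested, 4.03%, 6.34%, 2.39% and 2.38% passed as higher. The median log2 fold change of the 6 markers was -0.05, that of the 5 neutrophil markers -0.40 and that of the 5 lymphocyte markers -0.19. No neutrophil or lymphocyte marker was called by any of these tools. In edgeR 0 and 1 of them had an unadjusted p under 0.05, against 17.2% of all tested genes. Of 20 mast cell, endothelial, fibroblast and mesothelial markers 1 was called, where 6.23% of all tested genes were called. It was the endothelial junction gene Cldn5, singled out after its values were seen (log2 fold change 1.06, edgeR adjusted p = 0.0355). The part of myeloid cell content in the level of Osm was not tested.

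Lif lies beside Osm on chromosome 11, at chr11:4257568-4272514, with 16541 bases between the end of Osm (chr11:4236785-4241026) and its start. It encodes a cytokine that signals through gp130 paired with the Lif receptor. Vehicle libraries ranged from 2.78 to 5.42 CPM (median 4.14) and epinephrine libraries from 2.19 to 7.93 CPM (median 4.80). The log2 fold change was 0.24 (SE 0.29, 95% interval -0.40 to 0.87, edgeR adjusted p = 0.81). Lif was the higher with epinephrine in 5 of 6 replicate numbers. The neighbouring cytokine genes therefore had different estimates, 1.83 for Osm and 0.24 for Lif, and the difference between them was not tested.

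Clcf1, whose product acts through the ciliary neurotrophic factor receptor and gp130, was the steadiest of the 4 cytokines. It ranged from 2.85 to 4.23 CPM in vehicle libraries (median 3.17) and from 2.33 to 3.57 CPM in epinephrine libraries (median 2.77). In none of the 6 replicate numbers was the epinephrine library the higher. The log2 fold change was -0.27 (SE 0.16, 95% interval -0.61 to 0.08, edgeR adjusted p = 0.454), or -0.26 with the replicate block (adjusted p = 0.30).

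The receptor chains were abundant and their intervals were narrow. Il6st, the gp130 gene at chr13:112464070-112506860, ranged from 241 to 519 CPM in vehicle libraries (median 448) and from 269 to 440 CPM in epinephrine libraries (median 406). Its log2 fold change was -0.15 (SE 0.18, 95% interval -0.55 to 0.25, edgeR adjusted p = 0.802). Il6ra encodes the chain that binds IL-6 itself and lies at chr3:89869324-89913196 on the reverse strand. It ranged from 35.8 to 64.0 CPM in vehicle libraries (median 57.2) and from 38.2 to 70.3 CPM in epinephrine libraries (median 61.6), with a log2 fold change of 0.06 (SE 0.18, 95% interval -0.33 to 0.46, edgeR adjusted p = 0.94). The lowest values of both genes in the vehicle group were in vehicle 2, and in the epinephrine group in epinephrine 1, followed by epinephrine 2. These are the 3 libraries with the most Gpx5. Il6, Lif, Osm and Socs3 had the same libraries lowest in the same order, whereas Clcf1, Socs1, Socs2 and Cish did not. The part of epididymal tissue in these values was not tested.

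Among the feedback inhibitors, Socs1, which inhibits Janus kinases directly, ranged from 2.67 to 7.43 CPM in vehicle libraries (median 5.16) and from 2.08 to 4.79 CPM in epinephrine libraries (median 3.61). Its highest vehicle values, 6.28, 6.47 and 7.43 CPM, were in vehicle 3, 5 and 6, the libraries highest in Il6, whereas epinephrine 3 at 4.24 CPM was not the highest of its group. The log2 fold change of Socs1 was -0.48 (SE 0.27, 95% interval -1.08 to 0.11, edgeR adjusted p = 0.421). In 5 of 6 replicate numbers the epinephrine library had the lower value.

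Socs2, known as the inhibitor of growth hormone signalling, ranged from 11.4 to 21.3 CPM in vehicle libraries (median 17.0) and from 11.1 to 19.0 CPM in epinephrine libraries (median 12.2). Its log2 fold change was -0.31 (SE 0.18, 95% interval -0.69 to 0.08, edgeR adjusted p = 0.443). Cish, a target of STAT5 that restrains cytokine receptors, varied more, from 8.63 to 52.1 CPM in vehicle libraries (median 23.1) and from 9.89 to 68.0 CPM in epinephrine libraries (median 17.6). Its highest libraries were vehicle 3 and epinephrine 2, so its order across libraries was not that of Il6. The log2 fold change of Cish was 0.13 (SE 0.54, 95% interval -1.04 to 1.31, edgeR adjusted p = 0.956), and without epinephrine 2 it was -0.41.

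Other genes of the pathway were counted from lists chosen by function. Their counts stand against 2.65% of all tested genes higher, 3.58% lower and 17.2% with an unadjusted p under 0.05 in edgeR. Of 6 further gp130 cytokines, 3 were expressed highly enough to test, and 0 passed in edgeR, with a median log2 fold change of -0.15; the other 3, Il11, Cntf and Il27, did not pass the filter on low counts. The gene with the smallest p, Ebi3, a subunit of IL-27 and IL-35, stood at 3.56 ± 1.48 CPM in vehicle and 2.31 ± 0.49 CPM in epinephrine libraries (adjusted p = 0.257), and it was the 1 gene of the list with an unadjusted p under 0.05. Of 6 further receptor chains 0 passed, 0 had an unadjusted p under 0.05, and all 6 estimates were below 0 (median -0.20, range -0.46 to -0.06). Lifr, the Lif receptor, had the smallest p of them (log2 fold change -0.25, SE 0.14, edgeR adjusted p = 0.419). DESeq2, both limma fits and the replicate block called no gene of these 2 lists either.

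Of the 4 remaining SOCS genes, 1 fell and 0 rose (median log2 fold change -0.16). Socs6, which encodes an inhibitor acting on receptor tyrosine kinases, fell from 22.1 ± 2.28 CPM to 17.3 ± 1.11 CPM (SD, n = 6; log2 fold change -0.35, SE 0.08, edgeR adjusted p = 0.0188). Vehicle libraries spanned 19.1 to 24.9 CPM and epinephrine libraries 15.3 to 18.3 CPM of Socs6, with no overlap. Without vehicle 4 the adjusted p was 0.0704.

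Of 11 JAK and STAT genes 0 passed in edgeR and 3 had an unadjusted p under 0.05 (median log2 fold change -0.08). DESeq2 and limma-voom each called 1 of them, Stat3, higher and 2, Stat2 and Tyk2, lower. Of all genes they tested, 4.03% and 6.34% were higher and 4.63% and 9.29% lower. Limma on the transformed values and the replicate block called 0. Stat3 stood at 210 ± 21.5 CPM in vehicle and 264 ± 32.1 CPM in epinephrine libraries (log2 fold change 0.33, SE 0.10, edgeR adjusted p = 0.0772). Its adjusted p was 0.00819 in DESeq2, 0.00329 in limma-voom and 0.0594 in the blocked edgeR fit. The smallest p in edgeR was that of Stat2, a factor of interferon signalling, at 64.1 ± 3.23 CPM in vehicle and 49.8 ± 8.65 CPM in epinephrine libraries (log2 fold change -0.36, SE 0.10, adjusted p = 0.0576). Without epinephrine 1 and without epinephrine 2 Stat2 passed (adjusted p = 0.043 and 0.00844 in edgeR), and it was called in 9 of 25 alternatives.

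Of 8 other brakes on the pathway 2 fell and 0 rose (median log2 fold change -0.07). Pias3, whose product binds STAT3 and inhibits its activity, fell from 33.8 ± 4.24 CPM to 23.5 ± 2.73 CPM (log2 fold change -0.53 with SE 0.10 and an adjusted p of 0.00906 in edgeR). The ranges of Pias3, 27.8 to 38.5 CPM in vehicle and 21.2 to 27.2 CPM in epinephrine libraries, did not overlap. Ptpn6, which encodes the phosphatase SHP-1 of blood cells, fell from 28.0 ± 4.36 CPM to 19.2 ± 3.65 CPM (log2 fold change -0.54 with SE 0.14 and an adjusted p of 0.0378 in edgeR). In the blocked fit Ptpn6 no longer passed (adjusted p = 0.0762). It was called in 11 of 25 alternatives, and of the fits that left out 1 library it passed in those without vehicle 4 and without epinephrine 1.

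Of 12 known response genes of IL-6 and STAT3, 1 rose, 0 fell and 3 had an unadjusted p under 0.05 in edgeR (median log2 fold change 0.26). The 3 were Mcl1 and Junb, both higher, and Timp1, which was lower (log2 fold change -0.96, edgeR adjusted p = 0.277). Estimates in the list ran from -1.18 for Bcl3 to 1.17 for Junb. Mcl1, an anti-apoptotic gene of the BCL2 family, rose from 182 ± 36.9 CPM to 405 ± 103 CPM (SD, n = 6; log2 fold change 1.15, SE 0.20, edgeR adjusted p = 0.00521). The ranges of Mcl1, 129 to 227 CPM in vehicle and 244 to 482 CPM in epinephrine libraries, did not overlap. In the fit with the replicate number as a block, 3 of the 12 rose, where 2.38% of all tested genes were higher. They were Mcl1, Junb (log2 fold change 1.41, edgeR adjusted p = 0.0207) and Myc (0.92, edgeR adjusted p = 0.0266). Junb and Myc are immediate early genes that many signals induce besides STAT3. Without the block their adjusted p-values in edgeR were 0.230 and 0.319, and they are named here for the blocked result, after their values were seen. Limma-voom, which had no block, also called both higher (adjusted p = 0.0292 and 0.0199), where 6.34% of all tested genes were higher. The edgeR fit with the epididymis covariate called Myc (adjusted p = 0.0275, 4.04% of genes higher) and not Junb. DESeq2 and limma on the transformed values called Mcl1 alone of the 12. Socs3, the response gene of this pathway within the set, had an estimate of -0.98 without the block and -0.31 with it (edgeR adjusted p = 0.656 and 0.83).

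Of 7 genes of the growth hormone and STAT5 axis, the pathway that Socs2 and Cish restrain, 1 fell and 0 rose (median log2 fold change 0.05). Epor, the erythropoietin receptor gene, fell from 7.72 ± 2.05 CPM to 3.75 ± 1.33 CPM (log2 fold change -1.04, SE 0.27, edgeR adjusted p = 0.0416). Epor was called in 14 of 25 alternatives, and of the fits that left out 1 library it passed in those without vehicle 2, epinephrine 1 and epinephrine 6. Il7r, the IL-7 receptor gene, had an estimate above 0 (log2 fold change 0.78, edgeR adjusted p = 0.121). DESeq2 called it higher (0.80, adjusted p = 0.0361), where 4.03% of tested genes were higher. So did edgeR without the 3 libraries rich in Gpx5 (0.94, adjusted p = 0.0345, 4.87% of genes higher). Of the 8 inflammatory cytokines and chemokines 0 passed and 0 had an unadjusted p under 0.05 in edgeR, with a median log2 fold change of -0.03, and limma-voom called 1 of them higher. The smallest p was that of Il10, an anti-inflammatory cytokine that also signals through STAT3, at 1.24 ± 1.10 CPM in vehicle and 3.15 ± 2.63 CPM in epinephrine libraries (edgeR adjusted p = 0.325). In replicate numbers 1 to 3 alone edgeR called 0 genes of the whole table (1356 had an unadjusted p under 0.05), so the loss of these calls there is not particular to them. The log2 fold changes in those 6 libraries were 1.06 for Mcl1, -0.57 for Pias3, -0.29 for Socs6, -0.42 for Ptpn6 and -1.29 for Epor.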

How the data were processed

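Total RNA of eWAT from 12 mice was made into SMARTER mRNA-Seq libraries, per the labels' protocols. FastQC, cutadapt, HISAT2, featureCounts, DESeq2 and build mm10 are named, without versions, in the submitters' processing notes. No source used here states the strand setting. The authors deposited raw counts per gene with each gene's length, and log2-scale values from a variance-stabilizing transformation of the same libraries. A long noncoding gene antisense to Il6 had 0 to 1 counts per library. Every per-sample column was matched to a label and used.

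From the counts, edgeR 4.0.16 (R 4.3.3) gave TMM factors, kept genes by filterByExpr (minimum count 10, total 15), and fitted robust quasi-likelihood models over the 12 libraries. P-values were Benjamini-Hochberg adjusted over 16175 genes, with a threshold of 0.05. CPM and RPKM use TMM library sizes, and log2 CPM a prior count of 1. Alternatives used DESeq2 1.42.0, limma 3.58.1 (voom with sample weights, and the deposited log2 values), other size factors, filters, an epididymis marker covariate, omitted libraries and the replicate block. The edgeR fit was run on simulated counts with the same spread between replicates for every gene, and the permutation tests on simulated normal values. The fit was not checked at the spread of Il6, Socs3 or Osm.

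The deviations of same-numbered libraries from their group means correlated at 0.262 to 0.799 over 6 numbers. Only 3 of 12 libraries correlated best with their own number, and the labels name no pairing, shared cage or day. The block fit therefore assumes a pairing that was not established, and it stands as an alternative only. Numbers 1 to 3 were also compared apart from 4 to 6.

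The 10 genes and all lists were chosen with earlier results of these data known. Besides the 10 genes, the planned rule named, per pathway list, up to 4 past the threshold or else the 1 with the smallest p. It also named the 5 genes of an average log2 CPM of at least 1 most correlated with Il6, without unnamed gene models. Cd14, Cldn5, Junb, Myc, Stat3, Tyk2, Timp1, Bcl3 and Il7r were named outside this rule, after their values were seen.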

Additional observations from a re-analysis of the deposited data

Results flagged for a closer look

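In 4 of the 20 sets of 6 values examined (10 genes in 2 groups), 1 library stood apart from the other 5 by Dixon's test at 95%. About 1 of 20 sets would do so by chance if the sets were independent and their values normally distributed. The test was run on CPM and not on log2 CPM. Il6 and Socs3, which followed each other across libraries, were both flagged in epinephrine 3. The count of 4 is therefore not read against 1 of 20. Il6 in epinephrine 3 was at 10.8 CPM, while the next highest library of the group was at 2.31 CPM. Socs3 in the same library was at 135 CPM, and the next highest was at 51.3 CPM. Socs2 was at 19.0 CPM in epinephrine 2, above 13.6 CPM in the next library. Il6ra was at 35.8 CPM in vehicle 2, below 53.6 CPM in the next lowest library.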

How the results depend on the processing

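Between 4 and 612 reads of Il6 and 7 to 225 of Osm lay behind each value, and the wide spread of Il6 and Socs3 over 6 libraries a group left 95% intervals from -3.48 to 1.51 and from -2.78 to 0.81 on the log2 scale. Osm, Clcf1, Socs1 and Socs2 kept the sign of their log2 fold change in all 25 alternatives, and Clcf1, Socs1, Socs2, Il6, Lif, Il6st, Il6ra, Socs3 and Cish were called in none of them.

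The members called higher numbered 1 instead of 0 (Osm) with DESeq2, limma-voom, limma on the transformed values, the replicate block, the epididymis covariate or without the libraries rich in Gpx5, and 0 to 1 when single libraries were left out. Over all genes, with 428 higher and 579 lower, DESeq2 gave 760 and 873, limma-voom 1026 and 1503, the epididymis covariate 654 and 978, omission of the libraries rich in Gpx5 786 and 1028, and a threshold of 0.01 gave 228 and 185. Library size alone gave 361 higher and 1466 lower, with the median log2 fold change of all genes at -0.11, and numbers 4 to 6 alone gave 696 higher. Numbers 1 to 3 alone gave 0 and 0. Leaving out single libraries gave 317 (without epinephrine 3) to 549 higher and 276 (without vehicle 4) to 797 lower; the lower count was also reduced more than 1.5 times without vehicle 1 (353), vehicle 3 (364), epinephrine 3 (362), epinephrine 4 (314) or epinephrine 5 (373). Pathway genes, 1 higher and 4 lower, numbered 3 higher with DESeq2, the epididymis covariate or without the libraries rich in Gpx5. They numbered 5 higher with limma-voom, 2 with numbers 4 to 6, and 0 either way with numbers 1 to 3. Those lower gained Stat2 and Tyk2 with DESeq2, limma-voom, the epididymis covariate or library size alone. They gained Stat2 without the libraries rich in Gpx5 or with upper quartile size factors. A threshold of 0.01 left 1 lower, and leaving out single libraries gave 1 to 2 higher and 2 to 5 lower.

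With the replicate block, which assumes a pairing that the labels do not name, 365 genes were lower, and 1 member and 3 pathway genes were higher. Osm, Junb, Myc and Cd14 gained a call, Ptpn6 lost its own, and the log2 fold change of Il6 was 0.10. The block changed no other call among the 10 genes and the pathway genes.

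Signs turned as follows, with no call on either side. Il6 was 0.66 with limma-voom and 1.02 in numbers 1 to 3. Socs3 was 0.16 with limma-voom and 0.60 in numbers 1 to 3, where Lif was -0.015, Il6st 0.011 and Il6ra -0.011. Il6ra was -0.0497 with library size alone, -0.0107 without vehicle 2 and -0.0049 without epinephrine 6. Cish was -0.0084 with the epididymis covariate, -0.30 without the libraries rich in Gpx5, -0.0148 in numbers 4 to 6, -0.0123 without vehicle 1, -0.0134 without vehicle 4 and -0.41 without epinephrine 2, and up to 0.51 when other single libraries were left out. The Il6 difference in mean log2 CPM was -0.0078 with a prior count of 5 and -0.18 on the transformed values, and -0.46 to 0.87 when single libraries were left out, with -0.40, -0.46, -0.19 and -0.32 without vehicle 1, vehicle 2, vehicle 4 and epinephrine 3. The Il6 spread difference was -0.51 on the transformed values and -2.06 to -1.17 over left-out libraries. Within the subsets of numbers, r with Il6 was 0.73 for Lif and 0.79 for Osm, and over left-out libraries 0.53 to 0.70 for Lif, 0.37 to 0.63 for Osm and 0.968 to 0.978 for Socs3. For each of these changes the cause was not tested.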
